A study of Mus musculus with 12 samples.

Results

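The 9 genes described here were chosen by symbol as genes of the leptomeninges and the arachnoid, the thin inner membranes of the brain, and of the retinoic acid synthesis those membranes carry out: Ptgds, Aldh1a2, Crabp2, Foxc1, Zic1, Slc47a1, Dpp4, Slc6a13 and Slc22a2. They are 9 of the 27578 genes that could be followed in all 12 libraries. Gene positions are given on GRCm38, from GENCODE vM21. The libraries were made from cells labelled as monocytes that had been isolated with a magnetic kit from the meninges of male C57BL/6J mice. Each of the 4 groups had 3 libraries: stressed mice given psilocybin, stressed mice given MDMA, stressed mice given vehicle, and unstressed mice. Stress was restraint over 18 days, and the stressed groups were sampled 24 hours after psilocybin, MDMA or vehicle. Psilocybin is the precursor of psilocin, a serotonin receptor agonist, and MDMA is an amphetamine that releases serotonin. The sources used here give no dose, age or number of mice per library, and the titles alone mark the unstressed group, whose protocol text is that of the stressed mice. Nothing in the labels says that the 3 libraries of a group are different animals, and the p-values therefore rest on a spread that may be technical in part.

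Fibroblasts of the pia and arachnoid build the leptomeninges, and arachnoid barrier cells seal the cerebrospinal fluid from the dura. In development the meninges make retinoic acid, which acts through nuclear receptors on the neighbouring brain, and the Foxc1 and Zic transcription factors are needed for the meninges to form. In the adult these cells secrete prostaglandin D synthase and carry transporters for organic cations and amino acids. None of the 9 genes is among the classical monocyte genes used below, and the cells their counts came from were not tested.

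Library depth ran from 807725 counts in vehicle replicate 2 to 5136953 in MDMA replicate 3. The vehicle libraries held counts for 10343, 13461 and 9520 genes in replicates 1, 2 and 3, and the other libraries for 14319 to 17922. Of 10 classical monocyte genes, 6 to 10 had a count in each library. Their sum ran from 264 to 692 CPM (counts scaled to the library total) after psilocybin and from 627 to 1533 after MDMA. It ran from 242 to 672 after vehicle and from 567 to 624 in unstressed mice. Fn1 had the highest mean of the 10 in each group, at 178, 330, 248 and 345 CPM in the same order. The sums averaged 408, 1056, 441 and 586 CPM, so Fn1 weighed heavily in them. Pooled counts of the 10 genes in the vehicle group ran from 1 for S100a4 and 5 for Plac8 to 1446 for Fn1. The monocyte content of the libraries was not tested. Choroid plexus genes, which monocytes do not use, summed to between 13410 and 129489 CPM. The unstressed libraries were counted over a RefSeq annotation and the stressed ones over Ensembl genes, so stress and annotation cannot be told apart in any comparison with unstressed mice. Of the 9 genes, Aldh1a2, Zic1 and Slc22a2 have nearly the same exons in both annotations.

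All 9 genes were detected in the series, and per length of exon they spanned a wide range. Levels between genes are given as CPM per kb of exonic bases that a gene shares with no other gene. Ptgds, which encodes the enzyme that makes prostaglandin D2, had the highest mean in all 4 groups: 362 ± 168 CPM per kb after psilocybin, 219 ± 164 after MDMA, 354 ± 349 after vehicle and 153 ± 48.2 in unstressed mice (SD, n = 3 each). Slc47a1, the proton-coupled exporter of organic cations also called MATE1, came next with 72.8 ± 35.4, 116 ± 44.5, 51.2 ± 42.8 and 100 ± 61.7 CPM per kb in the same order of groups. The means of Ptgds and Slc47a1 differed by more than either SD after psilocybin, and by less than the larger SD in the other 3 groups. Zic1, Foxc1, Aldh1a2 and Crabp2 followed with means between 3.83 and 34.9 CPM per kb, and their order among themselves differed between groups. Dpp4, Slc6a13 and Slc22a2 were lowest, with means between 0 and 2.27 CPM per kb.

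**Figure D1:**
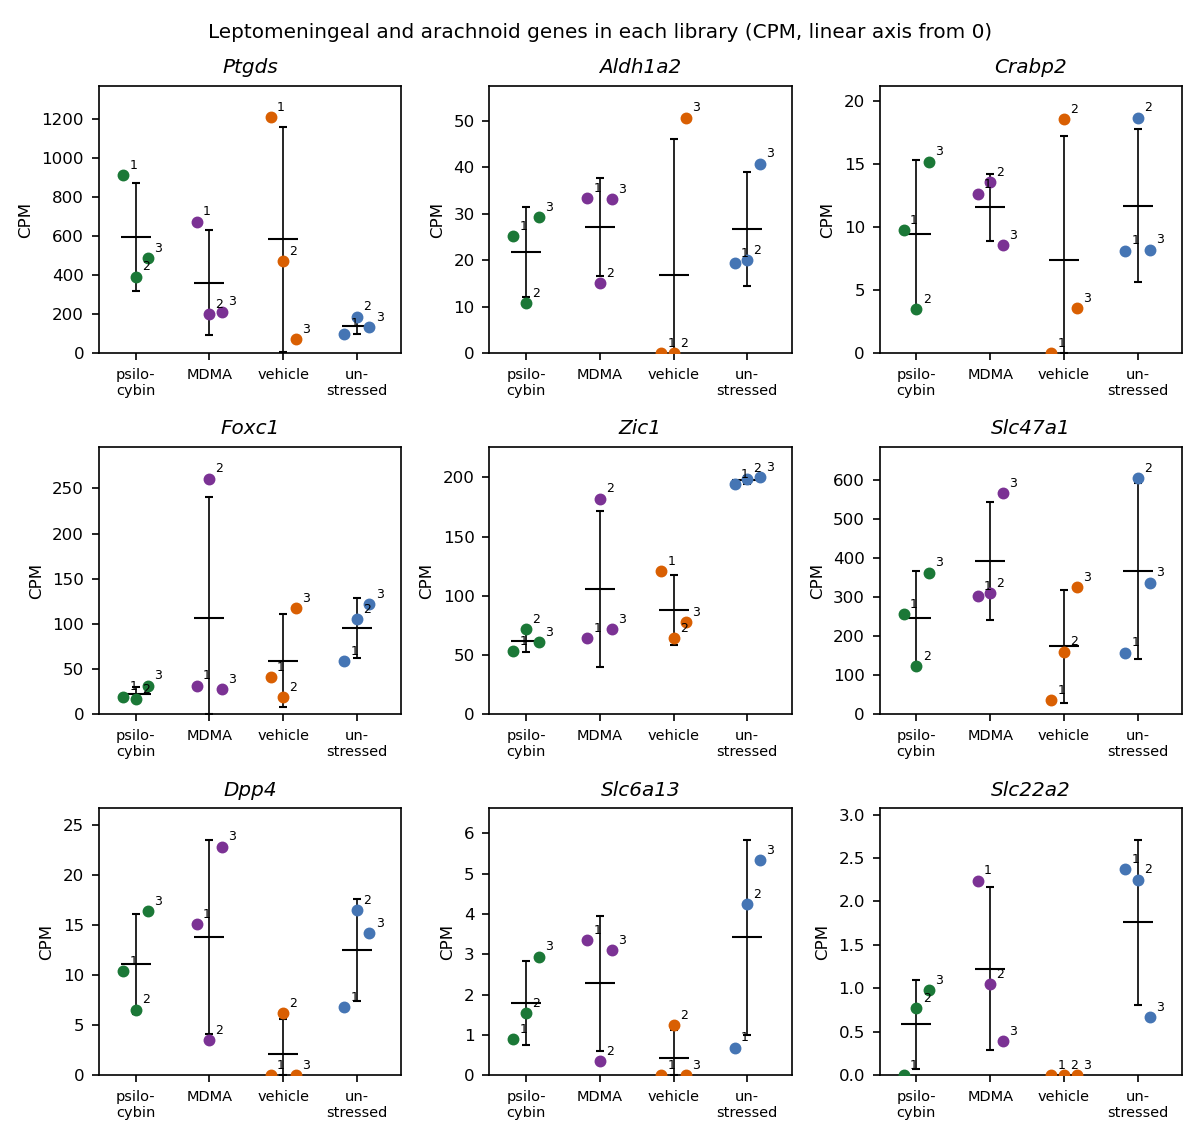
CPM of each of the 9 genes (linear axis from 0) in the 3 libraries of each group, numbered by replicate; the bar is the mean and the whiskers the SD, with the lower whisker cut at 0. Vehicle libraries sit at 0 for Aldh1a2, Crabp2, Dpp4, Slc6a13 and Slc22a2, and MDMA replicate 2 stands above the other MDMA libraries for Foxc1 and Zic1.

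The vehicle libraries lacked counts for several of the genes. Counts were present for 4 of the 9 genes in vehicle replicate 1, for 7 in replicate 2 and for 6 in replicate 3. Psilocybin replicate 1 had counts for 8 genes, lacking Slc22a2, and every other library outside the vehicle group had counts for all 9. A count of 0 still allows up to 0.828 CPM in vehicle replicate 1, 3.71 CPM in replicate 2 and 1.54 CPM in replicate 3, on a floor of 3 counts. No molecular identifiers are recorded for the reads, so such floors and intervals cover counting error only. Of the 8 genes that had counts in all libraries outside the vehicle group, 4 (Aldh1a2, Crabp2, Dpp4 and Slc6a13) were at 0 in at least 1 vehicle library, where 41.2% of 12413 such genes in the whole series were. In at least 2 vehicle libraries it was 3 of the 8 (Aldh1a2, Dpp4 and Slc6a13), where 15.7% of such genes were. Those genes were not matched to the members for abundance, and Slc6a13 had between 1 and 24 counts in each library outside the vehicle group. These are bulk samples, in which fewer cells of a type and less RNA per cell cannot be told apart.

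The promoters of 3 of these genes are shown, picked for their counts. Aldh1a2 was at 0 in vehicle replicates 1 and 2 and Dpp4 in replicates 1 and 3, whereas Foxc1 had counts in all 12 libraries. Promoter windows in RefSeq (GRCm38.p6, 250 bases before to 50 after the start) were found for 7 of the 9 genes, all but Crabp2 and Slc47a1. Only the stretch upstream of annotated exons is printed, 5′ to 3′ on the strand of the gene. Capitals mark matches on either strand to 3 promoter motifs, at any distance from the start. The first is TATAAA, found in many promoters with a focused start. In Dpp4 its match lies near the upstream end of the window, far from the start. The second is CCAAT, which the factor NF-Y reads. The third is GGGCGG, which factors of the Sp family read.
Aldh1a2, chr9:71215539-71215788 plus strand: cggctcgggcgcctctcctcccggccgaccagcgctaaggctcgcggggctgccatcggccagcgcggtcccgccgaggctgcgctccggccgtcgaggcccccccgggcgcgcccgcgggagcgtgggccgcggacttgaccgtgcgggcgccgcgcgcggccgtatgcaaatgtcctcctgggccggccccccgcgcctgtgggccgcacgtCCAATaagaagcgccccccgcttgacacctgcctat
Foxc1, chr13:31806396-31806632 plus strand: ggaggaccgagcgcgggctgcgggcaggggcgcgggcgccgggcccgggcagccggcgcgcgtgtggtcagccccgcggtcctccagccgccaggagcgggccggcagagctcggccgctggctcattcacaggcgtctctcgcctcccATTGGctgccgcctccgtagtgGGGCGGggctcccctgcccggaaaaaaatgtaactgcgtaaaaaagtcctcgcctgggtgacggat
Dpp4, chr2:62412319-62412481 minus strand: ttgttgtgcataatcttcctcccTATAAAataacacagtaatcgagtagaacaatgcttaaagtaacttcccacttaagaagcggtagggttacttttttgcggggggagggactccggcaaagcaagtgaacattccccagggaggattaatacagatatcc
Over the whole 300-base window, Aldh1a2 had 50 CpG sites and 78.0% GC and Foxc1 had 32 and 67.3%, while Dpp4 had 4 CpG sites and 45.3% GC. The medians of 32841 mouse promoter windows were 7 CpG sites and 52.7% GC. Aldh1a2 and Dpp4 thus stood on both sides of these medians. Slc6a13, also at 0 in 2 vehicle libraries, had 11 CpG sites and 59.0% GC. Slc22a2, at 0 in all 3 vehicle libraries, had 8 CpG sites and 52.7% GC. TATAAA was found in the Dpp4 window alone of the 7 (13.6% of all windows), CCAAT in those of Aldh1a2, Foxc1, Zic1 and Slc22a2 (37.4%), and GGGCGG in those of Foxc1, Zic1 and Slc6a13 (35.7%). AGGTCA, a site read by nuclear receptors that include those for retinoic acid, was in none of the 7 windows and in 16.3% of all windows.

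No fitted difference of the 9 genes passed the threshold. Counts of 13945 genes were tested in edgeR by quasi-likelihood, the Benjamini-Hochberg adjustment covered all of them at a threshold of 0.05, and 8 of the 9 genes passed the filter on low counts; Slc22a2 did not. For vehicle against unstressed mice, 0 of the 8 passed, where 3.43% of all genes tested did, 0.222% as higher and 3.21% as lower. For psilocybin against vehicle it was 0 of 8 beside 0.0143%, for MDMA against vehicle 0 of 8 beside 0.674%, and for psilocybin against MDMA 0 of 8 beside 0.0%. In the test of any difference among the 4 groups it was 0 of 8 beside 0.581%. An unadjusted p under 0.05 by edgeR was reached by Ptgds and Slc6a13 between vehicle and unstressed mice, where 18.6% of all genes tested reached it, and by Foxc1 between psilocybin and MDMA, beside 0.588%. It was reached by none of the 8 for psilocybin against vehicle (15.9% of genes) and MDMA against vehicle (16.7%). DESeq2 called 1 of the 8 in any of these tests, Ptgds between vehicle and unstressed mice (adjusted p = 0.0375), and limma voom called 0. Of all genes, DESeq2 called 1749, 1057, 1336, 0 and 1423 in the 5 tests, in the order given above. Limma voom called 1407, 436, 887, 0 and 828. DESeq2 gave Aldh1a2 no adjusted p in any of these tests. The groups compared with vehicle share its libraries, so their fold changes are not independent.

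Counted by groups that do not overlap in CPM, 3 of the 9 genes (Zic1, Dpp4 and Slc22a2) were lower in every vehicle library than in every unstressed one and 0 were higher, where 17.8% and 2.77% of the genes tested were. For psilocybin against vehicle 1 was higher (Dpp4, beside 20.8%) and 0 lower (beside 2.62%), and for MDMA against vehicle 1 was higher (Slc22a2, beside 16.8%) and 0 lower (beside 1.87%). Psilocybin and MDMA libraries overlapped for all 9 genes, while 7.76% of the genes tested were higher and 8.33% lower in every psilocybin library. Per kb of exonic bases, Dpp4 overlapped between vehicle and unstressed mice. Slc22a2 is not among the genes tested.

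**Figure D2:**
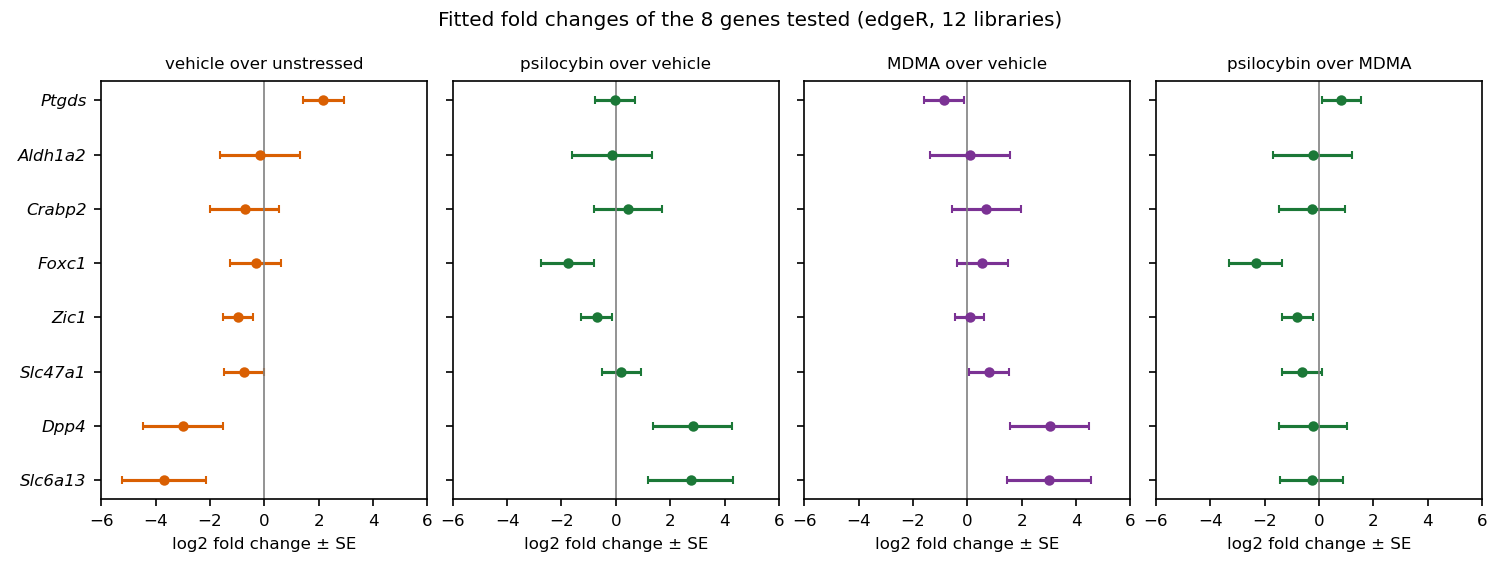
Log2 fold change with its standard error (x axis) of the 8 genes tested (y axis) in 4 comparisons, from edgeR on 12 libraries; positive values are higher in the first group named. In the comparisons with vehicle, standard errors are widest for Aldh1a2, Dpp4 and Slc6a13, which had 0 counts in 2 vehicle libraries, and no gene passed the threshold in any comparison.

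Ptgds (chr2:25466709-25470046, minus strand), whose product is also an abundant lipocalin of cerebrospinal fluid, had the lowest adjusted p of the genes between vehicle and unstressed mice. It stood at 911, 392 and 487 CPM after psilocybin, at 673, 198 and 212 CPM after MDMA, at 1207, 470 and 72.7 CPM after vehicle, and at 99.4, 186 and 132 CPM in unstressed mice, in replicates 1, 2 and 3. Vehicle replicates 1 and 2 lay above all unstressed libraries and replicate 3 below all of them, so the groups overlapped. The log2 fold change was 2.17 ± 0.76 (SE) for vehicle against unstressed mice (edgeR adjusted p = 0.132). It was -0.03 ± 0.73 for psilocybin against vehicle, -0.86 ± 0.73 for MDMA against vehicle and 0.83 ± 0.73 for psilocybin against MDMA (edgeR adjusted p = 0.994, 0.624 and 1.0). Leaving out vehicle replicate 3 gave 2.69 for vehicle against unstressed mice, with an edgeR adjusted p of 0.0281, within a range of 0.0281 to 0.563 over all settings tried. Without that library 983 of all genes passed in this comparison, against 478 with it. The gene has 1649 exonic bases of its own in the annotation of the stressed libraries and 909 in that of the unstressed libraries. Per kb, the means of 354 ± 349 in vehicle and 153 ± 48.2 in unstressed mice stood closer together than the CPM means of 583 ± 576 and 139 ± 43.8 (SD, n = 3 each). In CPM all 3 psilocybin libraries lay above all unstressed libraries, as 18.3% of the genes tested did, and so did all 3 MDMA libraries (11.7% of genes). Per kb this held for psilocybin, whereas the MDMA libraries, at 408, 120 and 129 CPM per kb, overlapped with the unstressed ones at 109, 205 and 146.

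Choroid plexus epithelium and oligodendrocytes also make Ptgds, and the sums of their genes were high or low in several of the same libraries. All 14 choroid plexus genes had counts in every library. Their summed levels were 120329, 65937 and 68846 CPM after psilocybin, 45496, 31606 and 23310 after MDMA, 129489, 66061 and 13410 after vehicle, and 41268, 15883 and 39578 in unstressed mice. Ttr and Enpp2 made up most of the sum in each group. They averaged 24119 and 41037 CPM after vehicle and 4926 and 23900 in unstressed mice, where the sums averaged 69653 and 32243. Of the 14 genes, Clic6, Otx2, Slc4a5 and F5 had lower means after vehicle than in unstressed mice, and the others had higher ones. Both the sum and Ptgds were highest in vehicle replicate 1 and second highest in psilocybin replicate 1, and both were lowest in vehicle replicate 3. Within the unstressed group the order was the opposite, since replicate 2 had the lowest choroid plexus sum and the highest Ptgds. Oligodendrocyte and myelin genes summed to 5603 CPM in MDMA replicate 1, the MDMA library highest in Ptgds, and to between 717 and 2119 CPM in the other 11 libraries. The part of these cell types in the Ptgds values was not tested.

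**Figure D3:**
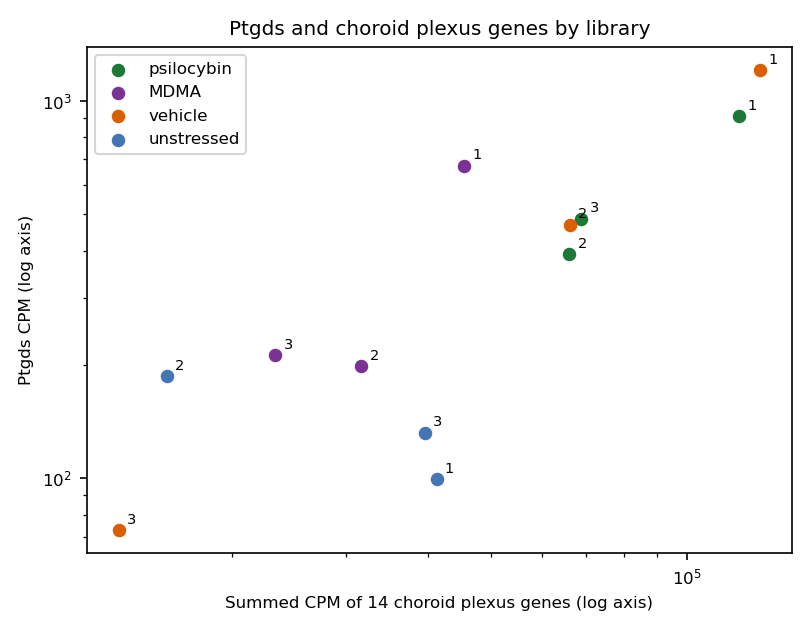
CPM of Ptgds (y axis, log) against the summed CPM of 14 choroid plexus genes (x axis, log) in the 12 libraries, coloured by group and numbered by replicate. Vehicle replicate 1 (129489 and 1207 CPM) and psilocybin replicate 1 lie at the upper right and vehicle replicate 3 (13410 and 72.7 CPM) at the lower left.

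No gene of the prostaglandin pathway passed the test with edgeR. Of 21 genes listed, 20 were tested and 0 passed in any of the 4 comparisons, with 5, 2, 3 and 0 at an unadjusted p under 0.05 for vehicle against unstressed, psilocybin against vehicle, MDMA against vehicle and psilocybin against MDMA, beside 18.6%, 15.9%, 16.7% and 0.588% of all genes in the same order. DESeq2 called 2, 1, 1 and 0 of them in the same order, among them Ptgds and the prostaglandin carrier Slco2a1, and limma voom 1, 0, 1 and 0. Over all genes these tools called 1749, 1057, 1336 and 0 (DESeq2) and 1407, 436, 887 and 0 (limma voom). The median log2 fold changes of the list were -0.10, -0.19, 0.02 and -0.37 in the same order, beside -0.18, 0.31, 0.24 and 0.02 for all genes tested. Next to Ptgds the most abundant were Ptges3, a cochaperone with prostaglandin E synthase activity (226 ± 19.2 CPM after psilocybin, 166 ± 77.9 after MDMA, 379 ± 317 after vehicle and 530 ± 360 in unstressed mice; SD, n = 3 each), and Pla2g4a, the cytosolic phospholipase that frees arachidonic acid (99.4 ± 44.6, 143 ± 59.0, 185 ± 42.9 and 79.9 ± 44.2 CPM).

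Aldh1a2 (chr9:71215789-71296243, plus strand), the retinaldehyde dehydrogenase that makes retinoic acid in the meninges, was present or absent as a whole in the vehicle libraries. It stood at 25.2, 10.8 and 29.2 CPM after psilocybin, at 33.4, 15 and 33.1 CPM after MDMA, at 0, 0 and 50.7 CPM after vehicle, and at 19.3, 20.0 and 40.8 CPM in unstressed mice. The 99 counts of vehicle replicate 3 gave the highest level of the 12 libraries, next to 0 counts in the other vehicle libraries, of which replicate 1 was the deepest of its group with 3623830 counts. Group means lay close together, at 21.7 ± 9.68 CPM after psilocybin, 27.2 ± 10.5 after MDMA, 16.9 ± 29.2 after vehicle and 26.7 ± 12.2 in unstressed mice (SD, n = 3 each). The log2 fold changes were -0.16 ± 1.47 (SE) for vehicle against unstressed mice, -0.14 ± 1.47 for psilocybin against vehicle, 0.09 ± 1.47 for MDMA against vehicle and -0.23 ± 1.46 for psilocybin against MDMA (edgeR adjusted p = 0.972, 0.98, 0.988 and 1.0). Vehicle replicate 3 decided these values. Without it Aldh1a2 was at least 38.9-fold lower in vehicle than in unstressed mice, at least 32.2-fold higher in psilocybin than in vehicle libraries, and at least 37.9-fold higher in MDMA than in vehicle libraries, on a floor of 3 counts over the vehicle group (edgeR adjusted p = 0.0093, 0.0258 and 0.0187, beside highest values of 1.0 over all settings tried). Without that library 983, 140 and 280 of all genes passed in these comparisons. Aldh1a2 has the same 2264 exonic bases of its own in both annotations.

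Crabp2 (chr3:87948666-87953376, plus strand), which binds retinoic acid in the cytosol and hands it to its receptor, did not follow Aldh1a2 in the vehicle libraries. Its levels were 9.77, 3.46 and 15.2 CPM after psilocybin, 12.6, 13.6 and 8.57 CPM after MDMA, 0, 18.6 and 3.58 CPM after vehicle, and 8.14, 18.7 and 8.21 CPM in unstressed mice. Vehicle replicate 2, which lacked Aldh1a2, was nearly the highest of the 12 libraries for Crabp2 on 15 counts, and all groups overlapped. Log2 fold changes ran from -0.72 ± 1.26 (SE) for vehicle against unstressed mice to 0.70 ± 1.26 for MDMA against vehicle (edgeR adjusted p = 0.82 and 0.853).

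In the retinoic acid pathway as a whole, the genes that passed with edgeR were Rdh11, a retinal reductase, and Cyp26b1, an enzyme that degrades retinoic acid. Of 24 genes listed, 21 were tested. For vehicle against unstressed mice 2 were lower and 0 higher, beside 3.21% and 0.222% of all genes. For MDMA against vehicle 1 was higher (Rdh11) and 0 lower, beside 0.674% and 0.0%. In psilocybin against vehicle and psilocybin against MDMA 0 passed with edgeR, beside 0.0143% and 0.0%. An unadjusted p under 0.05 by edgeR was reached by 4, 5, 5 and 0 of the 21 for vehicle against unstressed, psilocybin against vehicle, MDMA against vehicle and psilocybin against MDMA, beside 18.6%, 15.9%, 16.7% and 0.588% of all genes. DESeq2 called 2, 2, 4 and 0 in the same order and limma voom 4, 3, 3 and 0. All-gene counts were 1749, 1057, 1336 and 0 with DESeq2 and 1407, 436, 887 and 0 with limma voom. Both of these tools called Rdh11 and Cyp26b1 in all 3 comparisons with calls. Limma voom added the retinoic acid receptors Rara and Rarg as lower in vehicle than in unstressed mice and Aldh1a1, another retinaldehyde dehydrogenase, as higher for psilocybin against vehicle. For MDMA against vehicle both tools called Aldh1a1 as higher. In the test of any difference among the 4 groups edgeR called 0 of the list, DESeq2 3 and limma voom 2. There the tools called 81, 1423 and 828 of all genes. List medians of -0.16, 0.44, 0.10 and -0.08 for vehicle against unstressed, psilocybin against vehicle, MDMA against vehicle and psilocybin against MDMA stood beside medians of all genes of -0.18, 0.31, 0.24 and 0.02.

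Rdh11 had 25.2, 23.8 and 28.2 CPM after psilocybin, 21.6, 52.1 and 40.9 CPM after MDMA, 0, 1.24 and 0 CPM after vehicle, and 26.1, 12.5 and 12.2 CPM in unstressed mice. All vehicle libraries lay below all others, as for Cyp26b1, which had 6.81, 16.9 and 9.32 CPM after psilocybin, 5.33, 23.8 and 7.20 CPM after MDMA, 0, 0 and 0.512 CPM after vehicle, and 37.0, 15.2 and 12 CPM in unstressed mice. Among the genes tested, 20.8% were lower in every vehicle library than in every psilocybin library. The share was 16.8% against MDMA and 17.8% against unstressed libraries, and that for all groups at once was not counted. Rdh11 and Cyp26b1 each had a single count in the whole vehicle group. For Rdh11 that 1 count stood against 182 in unstressed mice, 87.9-fold lower in vehicle with a 95% counting interval of 15.6 to 3489 (edgeR adjusted p = 0.0363). The 436 counts of Rdh11 after MDMA were 198-fold higher than vehicle (interval 35.4 to 7856; edgeR adjusted p = 0.0465). For Cyp26b1 the 1 count stood against 224 in unstressed mice, 108-fold lower in vehicle (interval 19.2 to 4290; edgeR adjusted p = 0.0406). Without vehicle replicate 1, or without any 1 of the unstressed libraries, both genes lost their calls against unstressed mice, with edgeR adjusted p between 0.0532 and 0.0896. Leaving out vehicle replicate 1 or any 1 of the MDMA libraries likewise ended the call of Rdh11 for MDMA against vehicle (edgeR adjusted p between 0.0657 and 0.111), and so did DESeq2's size factors (0.0564). Rdh11 has 3455 bases of its own in the Ensembl and 1574 in the RefSeq annotation, and Cyp26b1 has 5352 and 7877.

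**Figure D4:**
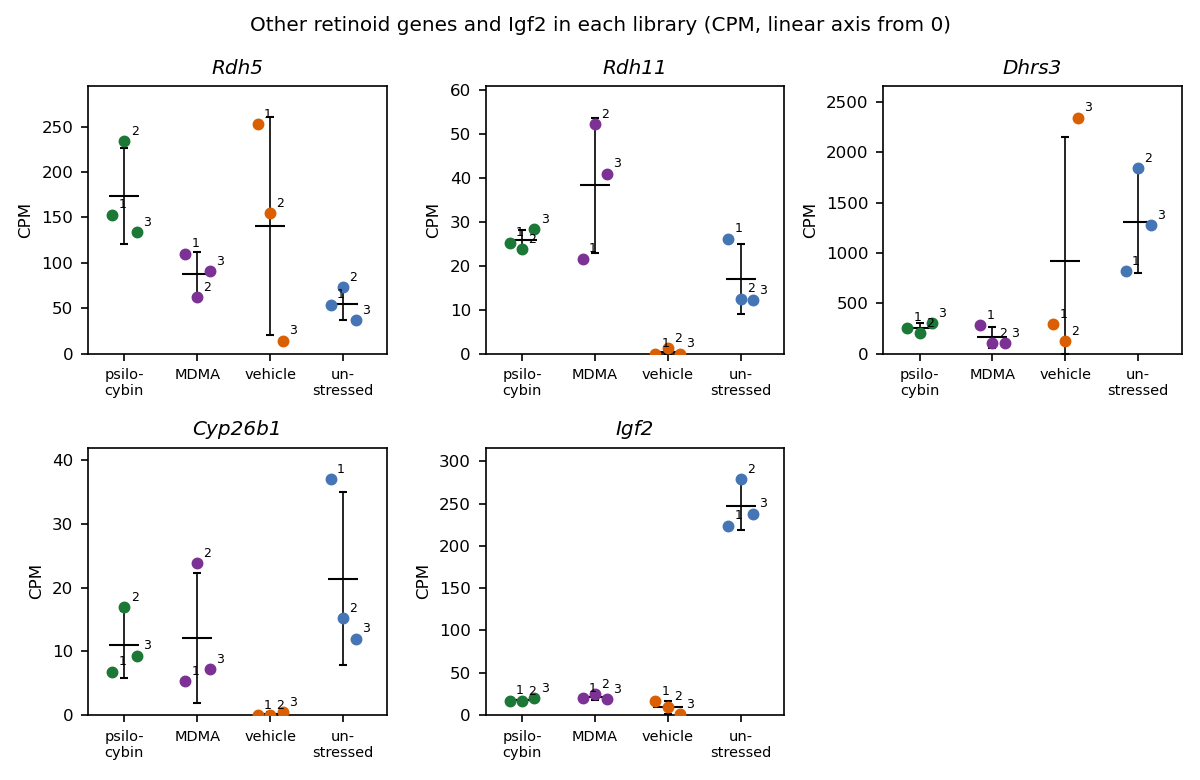
CPM (linear axis from 0) of 4 retinoid genes and of Igf2 in the 3 libraries of each group, numbered by replicate; the bar is the mean and the whiskers the SD, with the lower whisker cut at 0. Rdh11 and Cyp26b1 are at or near 0 in all vehicle libraries, and Igf2 is above 200 CPM in the unstressed libraries alone.

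Other abundant retinoid genes showed another pattern. Dhrs3, which returns retinal to retinol and so limits retinoic acid synthesis, stood at 257, 204 and 300 CPM after psilocybin, at 283, 101 and 105 CPM after MDMA, at 294, 120 and 2344 CPM after vehicle, and at 819, 1840 and 1273 CPM in unstressed mice. Vehicle replicate 3, the vehicle library with Aldh1a2, was the highest of the 12 for Dhrs3 as well, and the drug-treated libraries lay below all unstressed ones, as 18.5% of the genes tested did after psilocybin and 10.7% after MDMA. The log2 fold change of Dhrs3 was -3.02 ± 0.93 (SE) for MDMA against vehicle and -2.30 ± 0.90 for psilocybin against vehicle, and neither passed (edgeR adjusted p = 0.108 and 0.218). Rdh5, a retinol dehydrogenase, averaged 174 ± 53.5 CPM after psilocybin, 87.7 ± 24.0 after MDMA, 141 ± 120 after vehicle and 54.8 ± 18.4 in unstressed mice (SD, n = 3 each). No comparison of Dhrs3 or Rdh5 passed with edgeR; DESeq2 called Dhrs3 as lower for MDMA against vehicle.

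Foxc1 (chr13:31806633-31812476, plus strand), a forkhead factor required for meningeal development, was set by single libraries in the MDMA and vehicle groups. It stood at 19.2, 16.5 and 31.4 CPM after psilocybin, at 31.4, 261 and 28.0 CPM after MDMA, at 41.1, 18.6 and 117 CPM after vehicle, and at 58.3, 105 and 122 CPM in unstressed mice. MDMA replicate 2 was the highest of all libraries, and the other MDMA libraries lay close to psilocybin replicate 3, so the groups overlapped. The log2 fold change for psilocybin against MDMA was -2.33 ± 0.99 (SE), with an unadjusted p of 0.0333 and an adjusted p of 1.0 by edgeR, where 0.588% of all genes had an unadjusted p under 0.05. Without MDMA replicate 2 it was -0.30. For MDMA against vehicle it was 0.55 ± 0.94 and turned to -1.52 without that library (edgeR adjusted p = 0.841 and 0.509). The value for psilocybin against vehicle was -1.77 ± 0.97 and that for vehicle against unstressed mice -0.31 ± 0.94 (edgeR adjusted p = 0.41 and 0.899). All psilocybin libraries lay below all unstressed libraries, as 18.5% of the genes tested did; the gene has 5844 bases of its own in the Ensembl and 3990 in the RefSeq annotation. Endothelial and mural cells also use Foxc1, and their 13 marker genes summed to 2944 to 5088 CPM after psilocybin, 4091 to 4870 after MDMA, 3386 to 6401 after vehicle and 3509 to 6241 in unstressed mice; their part in the Foxc1 values was not tested.

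Zic1 (chr9:91358058-91365810, minus strand), a zinc finger factor of the meninges and the dorsal brain, was the most even of the genes in unstressed mice. Its levels were 53.3, 71.9 and 60.6 CPM after psilocybin, 64.2, 182 and 71.8 CPM after MDMA, 121, 64.4 and 77.8 CPM after vehicle, and 194, 199 and 200 CPM in unstressed mice. All 9 stressed libraries lay below all 3 unstressed ones, which held for 4.25% of the genes tested and for 3.15% of the 2441 tested genes with nearly the same exons in both annotations, of which Zic1 is one; the opposite held for 0.574% of those 2441. With TMM scaling, which the fold changes use, MDMA replicate 2 stood at 199 CPM and the unstressed libraries at 195, 192 and 208 CPM, so that this library was no longer apart and none of the 9 genes had the pattern (3.97% of genes). The log2 fold change for vehicle against unstressed mice was -0.96 ± 0.56 (SE; edgeR adjusted p = 0.395), and the test of any difference among the 4 groups gave an edgeR adjusted p of 0.379. It was -0.71 ± 0.56 for psilocybin against vehicle, 0.08 ± 0.55 for MDMA against vehicle and -0.79 ± 0.56 for psilocybin against MDMA (edgeR adjusted p = 0.608, 0.968 and 1.0). Cerebellar granule neurons also carry Zic1. The neuron and astrocyte genes, of which 4 to 13 had a count in each library, summed to 349, 1947 and 811 CPM after psilocybin, 632, 837 and 993 after MDMA, 309, 1306 and 3.58 after vehicle, and 40.7, 743 and 50.2 in unstressed mice. Of this list, Neurod1 averaged 300 CPM after psilocybin, 182 after MDMA, 115 after vehicle and 43.1 in unstressed mice. Its pooled counts, not scaled for depth, were 2709, 2161, 285 and 518 in the same order. The granule neuron gene Cbln3 had 5, 4, 0 and 0 pooled counts in the same order, and Gabra6 had 0 in all groups. The 8 pineal gland genes summed to 868, 6393 and 2316 CPM after psilocybin and 1514, 1720 and 3015 after MDMA. They summed to 1491, 3738 and 28.7 after vehicle, and to 123, 1951 and 20.0 in unstressed mice. In all 4 groups the library highest in the neuron and astrocyte sum was also the highest in the pineal sum. The part of neurons in the Zic1 values, and of pineal cells in the Neurod1 counts, was not tested.

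Among 16 Zic, Fox and related factors of the meninges, 15 were tested and 0 passed in any comparison with edgeR, with 1 in each of the 4 comparisons at an unadjusted p under 0.05 (18.6% of all genes for vehicle against unstressed, 15.9% for psilocybin against vehicle, 16.7% for MDMA against vehicle and 0.588% for psilocybin against MDMA). DESeq2 called 1 for vehicle against unstressed mice (Zic5, higher) and 1 for psilocybin against vehicle (Tbx18, lower), and limma voom called Foxp1 as lower in vehicle than in unstressed mice. In the same comparisons DESeq2 called 1749 and 1057 of all genes, and limma voom 1407 for vehicle against unstressed mice. The list medians were -1.02, 0.35, 0.81 and -0.85 for vehicle against unstressed, psilocybin against vehicle, MDMA against vehicle and psilocybin against MDMA. Those of all genes were -0.18, 0.31, 0.24 and 0.02. Foxp1 averaged 234 ± 95.9 CPM after psilocybin, 277 ± 103 after MDMA, 200 ± 185 after vehicle and 531 ± 92.3 in unstressed mice, and Foxp2 111 ± 66.6, 200 ± 68.5, 59.3 ± 71.9 and 118 ± 44.9 CPM (SD, n = 3 each).

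Slc47a1 (chr11:61343401-61378345, minus strand) was the most abundant of the 3 transporters, per length as well, and had counts in all 12 libraries. It stood at 255, 122 and 362 CPM after psilocybin, at 302, 309 and 566 CPM after MDMA, at 35.9, 160 and 324 CPM after vehicle, and at 157, 604 and 336 CPM in unstressed mice. Vehicle replicate 1 was the lowest of the 12 libraries and unstressed replicate 2 the highest, and all groups overlapped. Log2 fold changes were -0.75 ± 0.73 (SE) for vehicle against unstressed mice, 0.20 ± 0.72 for psilocybin against vehicle, 0.80 ± 0.73 for MDMA against vehicle and -0.61 ± 0.73 for psilocybin against MDMA (edgeR adjusted p = 0.649, 0.937, 0.651 and 1.0). The 12 dural fibroblast and bone genes, from the neighbouring outer membrane and skull, summed to 718, 510 and 1068 CPM after psilocybin, 1248, 1081 and 1503 after MDMA, 217, 665 and 724 after vehicle, and 472, 1135 and 466 in unstressed mice. In all 4 groups the library highest in Slc47a1 was also the highest in this sum; the part of dural tissue in the Slc47a1 values was not tested.

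**Figure D5:**
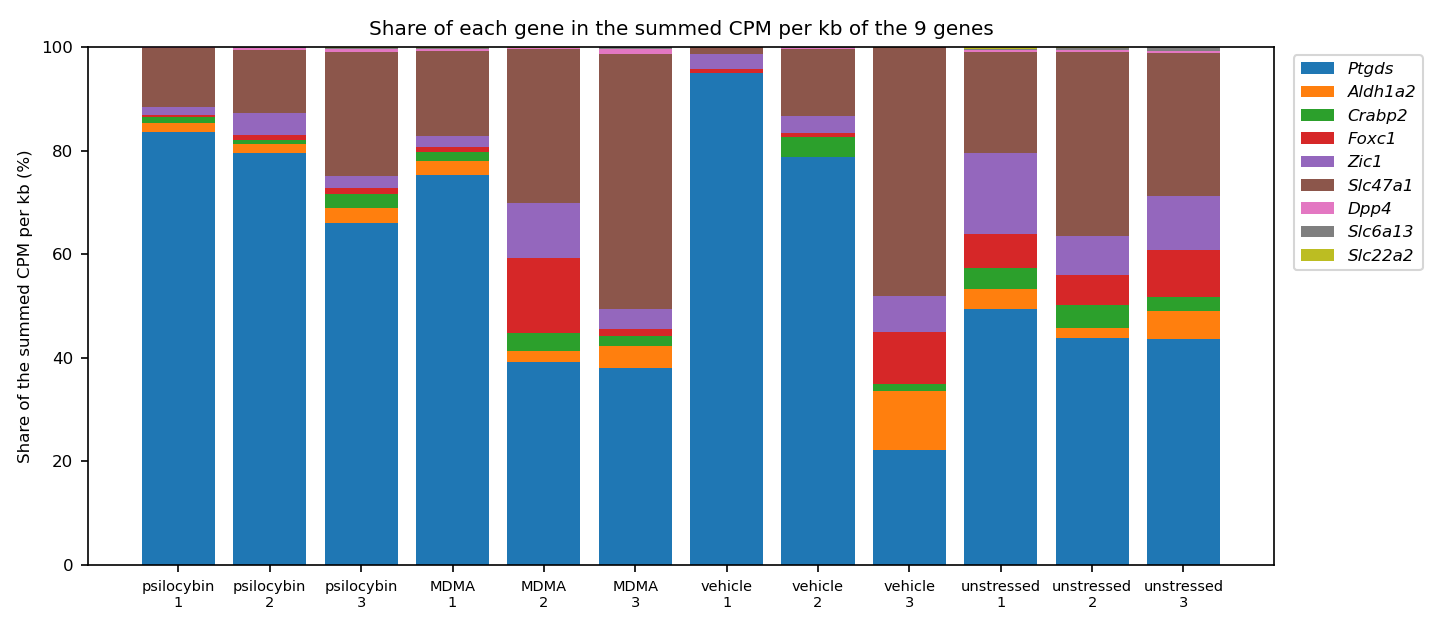
Share of each gene in the summed CPM per kb of the 9 genes (y axis, percent) in each of the 12 libraries (x axis). Ptgds makes up 94.9% in vehicle replicate 1 and 22.2% in vehicle replicate 3, and Slc47a1 1.37% and 48.2% in the same libraries.

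Ptgds and Slc47a1 together held most of the summed signal of the genes, in very different proportions. The share of Ptgds in the summed CPM per kb was 83.6%, 79.6% and 66.1% after psilocybin, 75.2%, 39.2% and 38.0% after MDMA, 94.9%, 78.7% and 22.2% after vehicle, and 49.4%, 43.9% and 43.6% in unstressed mice. The share of Slc47a1 was 11.4%, 12.1% and 23.9% after psilocybin, 16.4%, 29.8% and 49.2% after MDMA, 1.37%, 13% and 48.2% after vehicle, and 19.5%, 35.6% and 27.5% in unstressed mice. The share of Ptgds spanned the narrowest range in unstressed mice and the widest after vehicle.

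Dpp4 (chr2:62330073-62412231, minus strand), a membrane peptidase that removes dipeptides from chemokines and hormones and marks arachnoid fibroblasts in the mouse, had, with Slc6a13, the largest fitted differences from vehicle. Its levels were 10.4, 6.53 and 16.4 CPM after psilocybin, 15.1, 3.50 and 22.8 CPM after MDMA, 0, 6.19 and 0 CPM after vehicle, and 6.78, 16.5 and 14.2 CPM in unstressed mice. The vehicle value of 6.19 CPM rests on 5 counts in the shallowest library. Psilocybin libraries all lay above the vehicle libraries, as 20.8% of all genes tested did, and vehicle libraries all lay below the unstressed ones, as 17.8% did. The gene has 6087 bases of its own in the Ensembl and 8926 in the RefSeq annotation, and per kb the vehicle libraries, at 0, 1.02 and 0 CPM per kb, overlapped with the unstressed ones at 0.760, 1.84 and 1.59. The MDMA and vehicle libraries overlapped, since MDMA replicate 2 lay at 3.50 CPM. The log2 fold changes were -2.99 ± 1.46 (SE) for vehicle against unstressed mice, 2.83 ± 1.45 for psilocybin against vehicle, 3.03 ± 1.46 for MDMA against vehicle and -0.21 ± 1.25 for psilocybin against MDMA (edgeR adjusted p = 0.294, 0.373, 0.315 and 1.0). Vehicle replicate 2 decided these calls. Without it Dpp4 was at least 20.3-fold lower in vehicle than in unstressed mice, at least 18.4-fold higher in psilocybin than in vehicle libraries and at least 23.0-fold higher in MDMA than in vehicle libraries (edgeR adjusted p = 0.00591, 0.00744 and 0.00604, beside highest values of 0.932, 0.999 and 1.0 over all settings tried). Without that library 3670, 3534 and 3613 of all genes passed in these comparisons, against 478, 2 and 94 with it.

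T cells also carry Dpp4. The 12 T and NK cell genes found in both annotations summed to 69.0, 40.7 and 117 CPM after psilocybin, 99.5, 142 and 92.3 after MDMA, 205, 66.9 and 304 after vehicle, and 292, 70.3 and 69.7 in unstressed mice. In the vehicle group the counts of this list lay mostly in Il7r (458), Lck (301), Cd3g (231), Cd8a (186) and Cd3d (117), while Cd4 had 2, Cd8b1 and Cd5 1 each and Ncr1 0. The part of T cells in the Dpp4 values was not tested. Of 8 genes of the DPP4 family, 7 were tested and 0 passed with edgeR, with 2, 2, 2 and 0 at an unadjusted p under 0.05 for vehicle against unstressed, psilocybin against vehicle, MDMA against vehicle and psilocybin against MDMA, beside 18.6%, 15.9%, 16.7% and 0.588% of all genes. DESeq2 called 2, 1, 2 and 0, among them Dpp9 and Prep, and limma voom 2, 0, 2 and 0. Beside these stood 1749, 1057, 1336 and 0 of all genes with DESeq2 and 1407, 436, 887 and 0 with limma voom. The family's medians were -0.73, 2.61, 2.39 and -0.29, beside -0.18, 0.31, 0.24 and 0.02 for all genes. Fap, the fibroblast activation protein, averaged 75.6 ± 24.9 CPM after psilocybin, 97.4 ± 15.8 after MDMA, 109 ± 121 after vehicle and 53.5 ± 26.5 in unstressed mice. Dpp8 averaged 97.4 ± 3.17, 124 ± 7.29, 70.2 ± 59.7 and 118 ± 20.2 CPM, and Dpp7 58.2 ± 13, 44.6 ± 11.2, 52.1 ± 45.2 and 13.9 ± 6.96 CPM in the same order (SD, n = 3 each).

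Slc6a13 (chr6:121300227-121337733, plus strand), the GABA and taurine transporter GAT2, was rare in every library. It had 3, 4 and 12 counts after psilocybin (0.888, 1.54 and 2.94 CPM), 12, 1 and 16 after MDMA (3.36, 0.350 and 3.11 CPM), 0, 1 and 0 after vehicle (0, 1.24 and 0 CPM) and 2, 17 and 24 in unstressed mice (0.678, 4.24 and 5.33 CPM). The 1 count of the vehicle group lay in its shallowest library, whose level exceeded that of unstressed replicate 1, so the groups overlapped. The 43 pooled counts of unstressed mice stood against 1 vehicle count, 20.8-fold lower in vehicle with a 95% counting interval of 3.53 to 839 (edgeR adjusted p = 0.215). Psilocybin libraries with 19 counts were 10.5-fold higher than vehicle (interval 1.67 to 436) and MDMA libraries with 29 counts 13.2-fold higher (interval 2.19 to 539), with edgeR adjusted p of 0.429 and 0.361. Without vehicle replicate 2 it was at least 5.81-fold lower in vehicle than in unstressed mice (edgeR adjusted p = 0.041, beside 0.041 to 0.654 over all settings tried), among the 3670 genes that passed without that library. The gene has 2904 bases of its own in the Ensembl and 2348 in the RefSeq annotation.

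Slc22a2 (chr17:12584132-12628488, plus strand), the organic cation transporter OCT2, which takes up substrates that Slc47a1 exports, was the rarest gene with 38 counts in the 12 libraries. It had 0, 2 and 4 counts after psilocybin (0, 0.769 and 0.981 CPM), 8, 3 and 2 after MDMA (2.24, 1.05 and 0.389 CPM), 0 in all 3 vehicle libraries, and 7, 9 and 3 in unstressed mice (2.37, 2.25 and 0.666 CPM). On a floor of 3 counts over the vehicle group, it was at least 3.06-fold lower in vehicle than in unstressed mice, at least 1.1-fold higher in psilocybin than in vehicle libraries and at least 1.97-fold higher in MDMA than in vehicle libraries, with no test. The MDMA libraries all lay above the vehicle libraries, as 16.8% of the genes tested did, but the floor of 3.71 CPM in vehicle replicate 2 lies above every level measured for this gene, so a difference from that library was not detectable at this depth.

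Of 15 organic cation and GABA transporters, 11 were tested and 0 passed with edgeR, with 4, 1, 3 and 0 at an unadjusted p under 0.05 for vehicle against unstressed, psilocybin against vehicle, MDMA against vehicle and psilocybin against MDMA, beside 18.6%, 15.9%, 16.7% and 0.588% of all genes. DESeq2 called 1, 0, 1 and 0 and limma voom 0, 0, 2 and 0. The tools called 1749, 1057, 1336 and 0 (DESeq2) and 1407, 436, 887 and 0 (limma voom) of all genes. The medians of this list were -1.10, 0.66, 1.48 and -0.61 beside -0.18, 0.31, 0.24 and 0.02 for all genes. The taurine transporter Slc6a6 was the most abundant, with 789 ± 246 CPM after psilocybin, 1236 ± 33.6 after MDMA, 503 ± 266 after vehicle and 974 ± 134 in unstressed mice, and the imino acid transporter Slc6a20a averaged 73.8 ± 5.66, 65.4 ± 42.6, 93.3 ± 81.4 and 16.7 ± 11.4 CPM (SD, n = 3 each). Of 16 arachnoid barrier genes, 15 were tested and 0 passed with edgeR, DESeq2 or limma voom, with 3, 0, 1 and 1 at an unadjusted p under 0.05 by edgeR in the same order of comparisons and beside the same shares of all genes. The medians of these barrier genes were -0.57, 0.44, 0.80 and -0.54, beside the same medians of all genes. Beside Slc47a1 the most abundant of them were the drug exporter Abcg2, with 206 ± 84.2 CPM after psilocybin, 332 ± 53.6 after MDMA, 186 ± 166 after vehicle and 166 ± 84.1 in unstressed mice, and the keratin Krt18, with 189 ± 54.3, 79.1 ± 24.2, 211 ± 187 and 84.5 ± 30.2 CPM.

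Among 24 leptomeningeal fibroblast genes, of which 23 were tested, 1 was lower in vehicle than in unstressed mice and 0 higher, and 0 passed in the other comparisons with edgeR, with 1, 4 and 3 at an unadjusted p under 0.05 for psilocybin against vehicle, MDMA against vehicle and psilocybin against MDMA, beside 15.9%, 16.7% and 0.588% of all genes. In those comparisons DESeq2 called 0 and limma voom 0, 3 and 0, the 3 being Angptl2, Col1a1 and Col1a2 as higher for MDMA against vehicle. DESeq2 called 1057, 1336 and 0 of all genes there, and limma voom 436, 887 and 0. With edgeR 3.21% of all genes were lower in vehicle than in unstressed mice and 0.222% higher. The gene of this list that passed with edgeR was Igf2, a growth factor secreted by the leptomeninges. It stood at 16.9, 16.5 and 19.6 CPM after psilocybin, at 19.9, 24.5 and 19.1 CPM after MDMA, at 16.8, 9.90 and 1.02 CPM after vehicle, and at 224, 279 and 238 CPM in unstressed mice. It has 2029 bases of its own in the Ensembl and 4890 in the RefSeq annotation. Its log2 fold change for vehicle against unstressed mice was -4.63 ± 0.79 (SE; edgeR adjusted p = 0.0199; DESeq2 4.46e-09 and limma voom 0.0012), and it was also called in the test of any difference among the 4 groups (edgeR adjusted p = 0.0121, DESeq2 2.33e-13 and limma voom 0.00342). Leaving out unstressed replicate 1, 2 or 3 ended the call against unstressed mice at log2 fold changes of -4.65, -4.50 and -4.58 (edgeR adjusted p between 0.0755 and 0.0888), while the number of all genes past the threshold was 9, 10 and 8, against 478 with all libraries. The call of any difference was lost there too (edgeR adjusted p = 0.0946, 0.122 and 0.121). The list medians were -0.03, 0.29, 1.06 and -0.54 for vehicle against unstressed, psilocybin against vehicle, MDMA against vehicle and psilocybin against MDMA. Those of all genes were -0.18, 0.31, 0.24 and 0.02. Col1a1, a chain of type I collagen, averaged 700 ± 206 CPM after psilocybin, 3734 ± 2813 after MDMA, 769 ± 737 after vehicle and 1520 ± 830 in unstressed mice, Col1a2 666 ± 269, 2603 ± 846, 783 ± 852 and 1516 ± 383 CPM, and the proteoglycan Dcn 851 ± 357, 1619 ± 248, 590 ± 286 and 720 ± 200 CPM (SD, n = 3 each).

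Likeness between genes over the libraries is given as Pearson's r of log2(CPM + 1) over 12 libraries, as a description, since the libraries share groups, annotation and depth. Over the 21 pairs of the 7 genes with a mean of at least 5 CPM, r ran from -0.643 for Ptgds and Foxc1 to 0.767 for Foxc1 and Zic1. Slc47a1 had r = 0.755 with both Aldh1a2 and Crabp2, while Aldh1a2 and Crabp2 had 0.357 with each other, and Ptgds had an r of 0.029 or below with all the others. Among 11718 genes, those most like each member were Emc7 (r = 0.957), Pdcd6 and Mrps6 for Ptgds, and Prokr1 (0.978), Rhou and Cd36 for Aldh1a2. They were Def6 (0.937), Timeless and Rspo3 for Crabp2, Bclaf1 (0.91), Npr3 and Nab1 for Foxc1, and Pelo (0.932), Sfpq and Aoc3 for Zic1. For Slc47a1 they were Bgn (0.939), the proteoglycan biglycan, Rab7b and Col1a1 (0.922), and for Dpp4 they were Tmem198b, Nop9 and C1ra (0.979, 0.979 and 0.978).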

How the data were processed

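Per the labels' protocols, 5 ng of PicoPure-extracted RNA went into each NEBNext library. The deposited values are raw whole-number counts per gene. The submitters' processing notes name mm10 as the build and list edgeR 3.42.4, featureCounts 2.0.1, STAR 2.7.5c and fastp 0.23.2. For unstressed libraries, featureCounts counted reads over RefSeq exons with no strand or paired-end option, per the file headers. Stressed libraries carry versioned Ensembl identifiers; how they were counted is not stated. One series table repeats 9 of the columns, and its 3 remaining columns were not used.

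Of 55401 Ensembl identifiers, 55141 had a symbol in GENCODE vM21 (GRCm38). With 35976 RefSeq genes, 27578 were joined, 26669 by symbol and 909 by position (Jaccard index of exons of at least 0.5), holding 94.8% to 99.09% of each library's counts. Nearly the same exons means a Jaccard index of at least 0.9 and own lengths within 1.1 times (7259 genes). Gene groups and replicate numbers came from the sample titles.

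CPM use each library's total. Tests used edgeR 4.0.16 in R 4.3.3: TMM scaling, filterByExpr, a quasi-likelihood fit over all 12 libraries without a replicate block, and Benjamini-Hochberg adjustment at 0.05 over 13945 genes. Standard errors were derived from the test statistic. Ratios of few counts use pooled counts per TMM-scaled size with exact (Clopper-Pearson) 95% intervals. The scripts were tested on simulated counts. The alternatives were DESeq2 1.42.0, its size factors, limma 3.58.1 voom, no filter, 6 libraries only, the replicate number as a block, genes of nearly the same exons, and leaving out libraries. Between psilocybin and vehicle, deviations from the group mean correlated within each replicate number (r = 0.112, 0.213 and 0.115 across genes). For psilocybin against MDMA r was 0.225, 0.0239 and 0.214, and for vehicle against unstressed mice 0.0201, 0.131 and 0.0953. For MDMA against vehicle it was 0.0771, -0.109 and -0.0675. No label says what these numbers mark. The fit reported here did not use them as pairs, and they entered only in the alternative with a block.

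The members, the 7 gene lists and the 12 marker lists were chosen with earlier results of these data known. Named are all members, list genes past the threshold (up to 4 per list and comparison), the 3 most abundant genes of each list (1 of these is not reported here), and the 3 genes most like each member with a mean of at least 5 CPM; list genes called by the other tools alone were named after their values were seen. Promoter sequences are from RefSeq for GRCm38.p6.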

Additional observations from a re-analysis of the deposited data

How the results depend on the processing

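No member passed in the edgeR fit as reported. The number of genes past the threshold for vehicle against unstressed mice (478) was 300 with DESeq2's size factors, 295 without the filter, 1749 with DESeq2, 1407 with limma voom, 2 with only the 6 libraries, 10 with the replicate block, 25 among genes of nearly the same exons, and 8 to 3670 with 1 library left out. For psilocybin against vehicle (2) it was 7 without the filter, 1057 with DESeq2, 436 with limma voom, 0 with the size factors, with the 6 libraries, with the replicate block and without vehicle libraries 1 and 3, and 0 to 3534 with 1 library left out. For MDMA against vehicle (94) it was 3 with the size factors, 1336 with DESeq2, 887 with limma voom, 0 with the 6 libraries, with the replicate block and without vehicle libraries 1 and 3, and 0 to 3613 with 1 library left out. For any difference (81) it was 282 without the filter, 1423 with DESeq2, 828 with limma voom, 16 with the replicate block, 571 without vehicle libraries 1 and 3, and 11 to 2483 with 1 library left out. The highest counts all came without vehicle replicate 2, the shallowest library. For psilocybin against MDMA it was 0 under every setting run, with 82 genes at an unadjusted p under 0.05 by edgeR, 164 by DESeq2 and 179 by limma voom.

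The median of all genes for vehicle against unstressed, psilocybin against vehicle and MDMA against vehicle was -0.18, 0.31 and 0.24 with TMM and 0.00, 0.12 and 0.10 with DESeq2's size factors. These size factors turned the log2 fold change of Aldh1a2 to 0.15 for vehicle against unstressed and -0.17 for MDMA against vehicle, of Slc47a1 to -0.09 for psilocybin against vehicle and of Zic1 to -0.10 for MDMA against vehicle; DESeq2 gave 0.15, -0.17, -0.09 and -0.11. Limma voom turned psilocybin against vehicle to 0.17 for Ptgds and 3.45 for Aldh1a2, MDMA against vehicle to -0.16 for Foxc1 and -0.41 for Zic1, and psilocybin against MDMA to 0.04 for Slc6a13. The replicate block turned psilocybin against vehicle to 0.31 for Ptgds and 1.33 for Aldh1a2 and MDMA against vehicle to -0.04 for Zic1; it gave no member a call. Without vehicle libraries 1 and 3, which leaves the shallowest library as the whole vehicle group, assumed to vary like the other groups, psilocybin against vehicle turned to 0.54 for Ptgds, 9.25 for Aldh1a2 (fitted to 0 vehicle counts, no bound), -0.79 for Crabp2, 0.44 for Foxc1 and 0.11 for Zic1, and Crabp2 to 0.55 for vehicle against unstressed and -0.54 for MDMA against vehicle.

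With 1 library left out, ranges that changed sign were, for vehicle against unstressed, -9.52 to 0.45 for Aldh1a2 and -1.56 to 0.19 for Foxc1; for psilocybin against vehicle, -0.53 to 1.22 for Ptgds, -0.75 to 9.24 for Aldh1a2, -0.17 to 2.02 for Crabp2 and -0.29 to 1.45 for Slc47a1; for MDMA against vehicle, -1.61 to 0.38 for Ptgds, -0.50 to 9.49 for Aldh1a2, -1.52 to 1.81 for Foxc1 and -0.75 to 0.40 for Zic1; and for psilocybin against MDMA, -0.49 to 0.07 for Aldh1a2, -0.70 to 0.09 for Crabp2, -0.64 to 0.26 for Dpp4 and -0.77 to 0.09 for Slc6a13. The cause was not tested. Over the members and the list genes Rdh11, Cyp26b1 and Igf2, 166 values with 1 library left out kept their direction and side of the threshold, as did 206 under other alternatives, while 15 and 12 lost a call, 7 and 2 gained one, and 28 and 23 turned. The calls of Rdh11, Cyp26b1 and Igf2 were also lost with only the 6 libraries and with the replicate block. Depth limits Slc6a13 and Slc22a2, and Dpp4 in vehicle replicate 2, where the floor of 3 counts was 3.71 CPM. The lowest Dpp4 level outside the vehicle group was 3.50 CPM. In vehicle replicates 1 and 3 the floors were lower than that, at 0.828 and 1.54 CPM.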
